A study of Mus musculus with 2 samples.

Results

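The 2′-5′-oligoadenylate synthetase (OAS) family was followed across the cells of mouse bone marrow through 6 genes, Oas1a, Oas1g, Oas2, Oas3, Oasl1 and Oasl2, which were taken by symbol from the 31053 genes counted. All 6 were present in both libraries. Marrow cells had been captured in droplets and their RNA read cell by cell from 3′ ends, so that each captured transcript was counted once through its unique molecular identifier (UMI). One library carried the genotype label Apoe(-/-), Itgb3(-/-) and is called null-labelled here, and the other, called control-labelled, carried Apoe(-/-), Itgb3(+/+). Both came from C57BL/6 mice aged 6 months whose disease label is atherosclerosis. By label, every cell therefore came from an Apoe(-/-) animal, and loss of this apolipoprotein raises plasma cholesterol in mice. The libraries differed by label in Itgb3, the integrin β3 subunit. How many animals stand behind each library is not stated in the labels. With 1 library per genotype there was no replicate, no difference between genotypes could be tested, and all intervals are 95% intervals for counting error only.

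OAS enzymes bind double-stranded RNA, a product of viral replication, and then join ATP into short 2′-5′-linked oligoadenylates (2-5A). 2-5A is a second messenger of the antiviral response. Transcription of the OAS genes is induced by interferon, which acts through the interferon-stimulated response element (ISRE) in promoters. Oas1a and Oas1g encode small synthetases, Oas2 and Oas3 larger ones built from repeated synthetase units. The OAS-like proteins carry ubiquitin-like domains: in mouse, Oasl1 makes no 2-5A and restrains translation of the Irf7 mRNA, whereas Oasl2 retains synthetase activity.

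All 6 genes lie on chromosome 5 (mm10). Oas1a (ENSMUSG00000052776, chr5:120896256-120907521), Oas1g (ENSMUSG00000066861, chr5:120876142-120887613), Oas3 (ENSMUSG00000032661, chr5:120753098-120777661) and Oas2 (ENSMUSG00000032690, chr5:120730333-120749853) are on the minus strand of one cluster. Oasl2 (ENSMUSG00000029561, chr5:114896936-114912234) and Oasl1 (ENSMUSG00000041827, chr5:114923240-114937915) are neighbours on the plus strand of another. Because interferon acts on these genes through the ISRE, their promoters were searched for the ISRE core, GAAA repeated after any 2 bases, on both strands within the 250 bases before the start. RefSeq promoters (GRCm38.p6) were held for 5 of the 6 members, and 3 of these contained the core, against 3.46% of all 27025 genes with a promoter in that table. The stretches around the matches are shown 5′ to 3′ on the gene's own strand, with the core in capitals.
Oas1a: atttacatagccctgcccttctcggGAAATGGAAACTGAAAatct
Oas1g: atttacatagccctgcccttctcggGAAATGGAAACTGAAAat
Oas3: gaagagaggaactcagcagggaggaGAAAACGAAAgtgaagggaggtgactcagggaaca
They span chr5:120907526-120907570, chr5:120887614-120887656 and chr5:120777700-120777759, all on the minus strand. Counting the base before the start as -1, the Oas1a stretch holds 2 overlapping matches that begin at -20 and -14, and the Oas1g stretch, which occurs whole within that of Oas1a, holds 2 that begin at -18 and -12. The Oas3 match begins at -75.

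The promoters of the OAS-like genes contained no match in the 250 bases searched, and the 100 bases before each start are shown for comparison (chr5:114923140-114923239 and chr5:114896834-114896933, plus strand).
Oasl1: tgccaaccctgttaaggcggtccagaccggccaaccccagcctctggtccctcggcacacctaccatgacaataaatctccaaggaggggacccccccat
Oasl2: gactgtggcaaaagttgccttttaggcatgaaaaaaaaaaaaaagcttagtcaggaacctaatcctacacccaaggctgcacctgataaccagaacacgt
A match describes letters in a window and not binding, and the absence of one says only that these letters are not in the window. The interferon gamma activated site TTCNNNGAA, searched in the same way, occurred in 8.13% of genes with a promoter and, among the 5 members held, in that of Oas1a.

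After filtering, 2903 cells with 33499181 UMIs remained in the null-labelled library and 8595 cells with 59013746 UMIs in the control-labelled library, with median depths of 9311 and 4808 UMIs per cell. The libraries had 11 barcodes in common before filtering, and 6 among the cells kept. Over all cells, Itgb3 was at 7.43 CPM (UMIs scaled to a class or library total of 1000000) in the null-labelled library and 23.6 CPM in the control-labelled library, that is, lower but present. The labels do not say which part of Itgb3 the allele removes, and 3′ counts outside a deleted part would not check the label. Cells were clustered within each library without the OAS and other interferon-response genes, and clusters were named from marker genes. The 8 classes with at least 100 cells in both libraries were compared, and their names mean cells like those named: granulocyte-monocyte progenitors (GMP-like, 131 null-labelled and 295 control-labelled cells), immature neutrophils (271 and 1061), mature neutrophils (356 and 1704), monocytes (121 and 712), B precursors (329 and 1192), mature B cells (354 and 663), T cells (131 and 203) and erythroid cells (923 and 1849). The markers fixed for bone marrow thus found its granulocytic, monocytic, lymphoid and erythroid lineages. A control-labelled megakaryocyte-like cluster of 110 cells had Itgb3 among its 10 leading genes, and no null-labelled cluster was given that name. The part of cell makeup in the Itgb3 difference over all cells was not tested. Chemokine or acute-phase genes stood among the 10 leading genes of the null-labelled monocyte-like cluster (Saa3, Ccl2) and of a GMP-like cluster (Cxcl9, Cxcl10), and no monocyte marker stood among those 10 of the monocyte-like cluster.

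Every OAS gene was higher in the null-labelled library when all cells were summed. Together the 6 genes reached 430.0 CPM (interval 423 to 437) in null-labelled cells and 57.1 CPM (55.2 to 59.1) in control-labelled cells, 7.53-fold higher (7.25 to 7.82). The 6 members were each 2-fold or more higher, where 8.49% of the 12997 genes with at least 30 UMIs were 2-fold or more higher and 18.2% 2-fold or more lower. The median log2 ratio of the members was 3.29, against -0.24 over all those genes. Taking the mean over cells of each cell's own CPM in place of summed UMIs gave a log2 ratio of 2.30 for the family, against 2.91 from the sums, and a control-labelled level of 101.7 CPM.

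The small synthetase Oas1a had 874 UMIs (26.1 CPM) in the null-labelled library and 177 UMIs (2.999 CPM) in the control-labelled library, a ratio of 8.70 (7.39 to 10.3). Among the compared classes its level in null-labelled cells was highest in monocyte-like cells at 63.3 CPM, with 35.7 CPM in mature neutrophil-like, 29.2 CPM in erythroid-like, 28.8 CPM in GMP-like, 21.5 CPM in immature neutrophil-like and 14.98 CPM in B precursor-like cells. In control-labelled cells the same classes held 7.29, 5.70, 1.31, 2.79, 2.11 and 2.43 CPM. These totals include hemoglobin UMIs, with a median share of 70.7% in null-labelled erythroid-like cells, so the place of that class depends on this choice. Oas1a was found in every myeloid class of both libraries. Mature B-like cells held 7 null-labelled UMIs (2.92 CPM) and 0 control-labelled UMIs. T-like cells held 5 null-labelled UMIs (4.70 CPM) and 3 control-labelled UMIs (3.87 CPM, 0.799 to 11.3). These levels were below every myeloid class in the null-labelled library. In the control-labelled library the T-like value, on few UMIs, was above those of GMP-like and immature neutrophil-like cells. The Oas1a ratio of 1.22 in T-like cells had an interval of 0.236 to 7.82, so no difference was detectable at this depth.

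Oas1g, the near copy of Oas1a, was the rarest member, with 134 UMIs (4.0 CPM) in the null-labelled library and 14 UMIs (0.237 CPM) in the control-labelled library, a ratio of 16.9 (9.71 to 31.7). Most of its transcripts came from the 4 myeloid classes. Null-labelled cells held 40 Oas1g UMIs in the GMP-like class, 28 in immature and 24 in mature neutrophil-like cells and 17 in monocyte-like cells, and control-labelled cells held 1, 3, 5 and 2 UMIs in these classes. Erythroid-like cells held 16 null-labelled UMIs and 1 control-labelled UMI. No Oas1g UMI was found in mature B-like or T-like cells of either library, which allows up to 1.25 CPM and 1.69 CPM in mature B-like and 2.82 CPM and 3.87 CPM in T-like cells of the null-labelled and control-labelled libraries at a floor of 3 UMIs. The last 500 bases of an Oas1a transcript share an identical run of 263 bases with Oas1g, and those of Oas1g share 146 bases with Oas1a. The sources used here do not say how reads that fit both were counted, so the division of UMIs between these genes is uncertain. For the other members the longest run shared with another Oas gene was 26 bases.

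Oas2 had 1346 UMIs (40.2 CPM) in the null-labelled library and 218 UMIs (3.69 CPM) in the control-labelled library, a ratio of 10.9 (9.42 to 12.6). The sharpest contrast lay in the erythroid class, where 452 UMIs (47.2 CPM) were counted in null-labelled cells and 2 UMIs (0.138 CPM) in control-labelled cells, a ratio of 343 with an interval of 94.5 to 2844. The control-labelled class was the larger, with 14539616 UMIs in all against 9569803 in null-labelled cells. On totals that include hemoglobin UMIs, mature neutrophil-like and monocyte-like cells had the highest null-labelled levels of the compared classes. They were at 81.1 CPM and 78.4 CPM, against 20.1 CPM and 3.41 CPM in the control-labelled classes. Oas2 was 22.3-fold higher (10.2 to 57.5) in B precursor-like and 5.18-fold higher (2.19 to 14.9) in mature B-like cells, and T-like cells held 4 UMIs in the null-labelled and 0 in the control-labelled library.

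Oas3, which encodes the largest synthetase of the family, had the smallest ratio of the family. It had 3499 UMIs (104.5 CPM) in the null-labelled library and 1780 UMIs (30.2 CPM) in the control-labelled library, a ratio of 3.46 (3.27 to 3.67). The difference ran from 72.0-fold (27.8 to 266) in GMP-like cells, with 253 null-labelled UMIs against 4 control-labelled UMIs, to 1.64-fold (1.47 to 1.83) in mature neutrophil-like cells, with 211 CPM in null-labelled against 129 CPM in control-labelled cells. In between it was 18.3-fold in B precursor-like, 8.49-fold in monocyte-like, 8.15-fold in mature B-like, 7.90-fold in T-like, 7.87-fold in immature neutrophil-like and 3.40-fold in erythroid-like cells. The classes in which control-labelled cells held most Oas3, mature neutrophil-like at 129 CPM and erythroid-like at 42.8 CPM, were those with the smallest ratios. The control-labelled level is the divisor of each ratio, so this pairing is partly built in. In the erythroid class the median log2 ratio of all genes was also low, at -1.41.

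Oasl1, the member without synthetase activity, showed the largest ratio over all cells. It had 4104 UMIs (122.5 CPM) in the null-labelled library and 289 UMIs (4.90 CPM) in the control-labelled library, a ratio of 25.02 (22.2 to 28.3). On totals that include hemoglobin UMIs, monocyte-like cells led the compared classes. They were at 223.5 CPM in the null-labelled against 3.64 CPM in the control-labelled library, a ratio of 61.4 (42.6 to 91.4). The control-labelled class joined clusters at 10.8 CPM and 0.968 CPM of Oasl1, over which this ratio averages. In GMP-like cells 321 null-labelled UMIs (67.9 CPM) stood against 0 control-labelled UMIs, at least 122-fold higher at a floor of 3 UMIs in the control-labelled class; the counting interval of this ratio begins lower, at 98.5. Oasl1 was the main OAS transcript of null-labelled B lineage cells, at 159 CPM in mature B-like and 127 CPM in B precursor-like cells, against 11.3 CPM and 5.23 CPM in control-labelled cells. Its lowest null-labelled level in these classes, 28.8 CPM, was in immature neutrophil-like cells, which had 0.423 CPM in the control-labelled library. An antisense gene, Gm13822 (ENSMUSG00000087477, chr5:114917318-114923277), overlaps the first Oasl1 exon on the opposite strand. It had 544 UMIs (16.2 CPM) in the null-labelled library and 79 UMIs (1.34 CPM) in the control-labelled library. The sources used here do not say whether the counting used strand, so reads from the overlap cannot be told apart. That overlap, chr5:114923240-114923277, is confined to the 5′ ends of both genes, whereas the reads came from 3′ ends.

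Oasl2 was the most abundant member in the null-labelled library, with 4446 UMIs (132.7 CPM), against 892 UMIs (15.1 CPM) in the control-labelled library, a ratio of 8.78 (8.17 to 9.45). On the log2 scale this ratio was 3.13, and 2.09 with the mean over cells. Its null-labelled level was 199 CPM in mature neutrophil-like and 197 CPM in erythroid-like cells, and these classes had 86.8 CPM and 7.70 CPM in the control-labelled library. The ratio was therefore 2.30-fold (2.03 to 2.60) in mature neutrophil-like cells and 25.5-fold (21.1 to 31.2) in erythroid-like cells. It was 36.4-fold (24.8 to 55.3) in immature neutrophil-like cells, with 107.6 CPM in null-labelled and 2.96 CPM in control-labelled cells. In GMP-like cells it was 38.8-fold (22.0 to 75.7), with 86.5 CPM in null-labelled and 2.23 CPM in control-labelled cells.

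**Figure D1:**
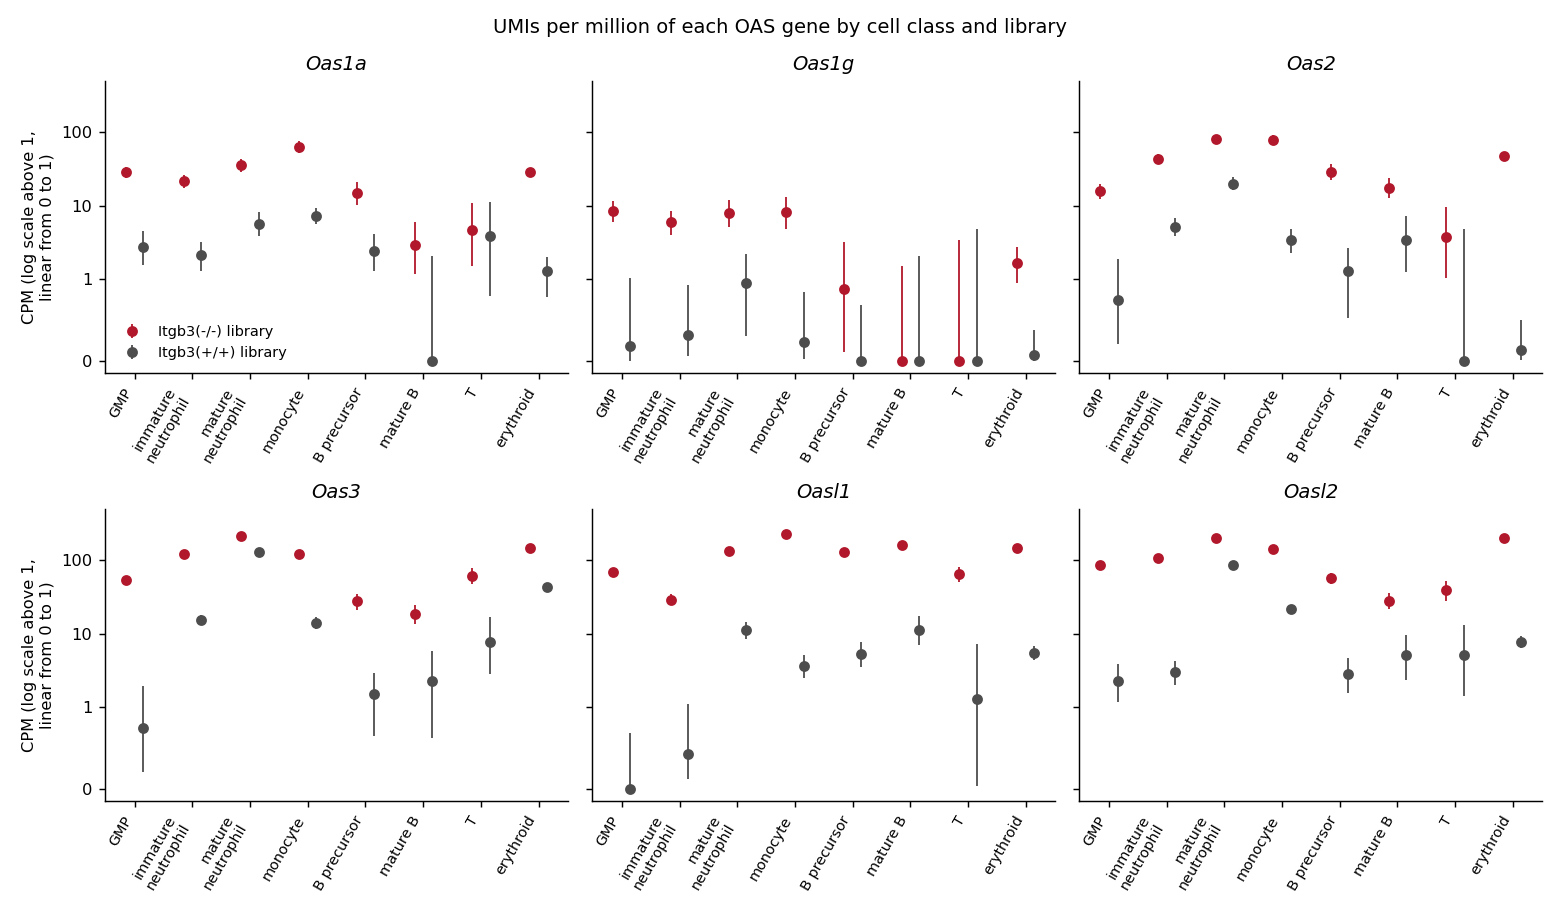
Level of each OAS gene in the 8 compared classes, as CPM on an axis that is logarithmic above 1 and linear from 0 to 1; red points are the Itgb3(-/-) library, dark points the Itgb3(+/+) library, and bars are 95% Poisson intervals of the summed UMIs. Oas3 and Oasl2 in mature neutrophils, at 211 against 129 CPM and 199 against 86.8 CPM, lie closest together among the well-counted pairs, and Oas2 in erythroid cells, at 47.2 against 0.138 CPM, lies among the farthest apart.

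Set side by side, the classes of the null-labelled library differed less in their summed OAS level than those of the control-labelled library. In null-labelled cells the order was mature neutrophil-like (668 CPM, 639 to 698), monocyte-like (633 CPM, 599 to 668), erythroid-like (568 CPM, 553 to 584), immature neutrophil-like (329 CPM, 313 to 346), GMP-like (261 CPM, 247 to 276), B precursor-like (256 CPM, 235 to 277), mature B-like (226 CPM, 207.5 to 246) and T-like cells (172 CPM, 148 to 199). The ratio between neighbours in this order had a counting interval that included 1 for mature neutrophils over monocytes (0.984 to 1.13) and for GMP-like over B precursor-like cells (0.925 to 1.13). For B precursor-like over mature B-like cells it was 1.13 (1.004 to 1.27). The place of erythroid-like cells depends on hemoglobin transcripts in their total: counted over UMIs other than hemoglobin they came first at 1559 CPM, ahead of mature neutrophil-like cells at 674 CPM. In control-labelled cells mature neutrophils stood apart at 253.5 CPM (240.1 to 267). Erythroid-like (57.5 CPM, 53.7 to 61.5) and monocyte-like cells (50.1 CPM, 45.4 to 55.1) came next, with a ratio between them of 1.15 (1.02 to 1.29), followed by immature neutrophil-like (26.4 CPM, 23.3 to 29.9), mature B-like (22.0 CPM, 15.6 to 30.1), T-like (18.1 CPM, 9.88 to 30.3), B precursor-like (13.3 CPM, 10.4 to 16.7) and GMP-like cells (6.69 CPM, 4.68 to 9.26). From immature neutrophil-like down to B precursor-like cells the interval of each ratio between neighbours included 1. GMP-like cells thus ranked last in control-labelled marrow but above all 3 lymphoid classes, by value, in null-labelled marrow.

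The ratio of the summed members was accordingly largest in GMP-like cells, at 39.0-fold (28.0 to 56.0). It was 19.3-fold (15.1 to 25.03) in B precursor-like, 12.6-fold (11.3 to 14.1) in monocyte-like, 12.5-fold (10.9 to 14.3) in immature neutrophil-like, 10.3-fold (7.43 to 14.6) in mature B-like, 9.89-fold (9.19 to 10.6) in erythroid-like and 9.53-fold (5.53 to 17.8) in T-like cells. Mature neutrophil-like cells had the smallest, 2.64-fold (2.46 to 2.83). Of their 356 null-labelled cells, 246 lay in a cluster with nearly equal marker scores for mature and immature neutrophils, 1.691 and 1.669. In the control-labelled library the closest such scores of a mature cluster were 1.297 and 0.503, so the class may differ in maturity between libraries. Depth per cell moved with the genotype in every class: the median was 32868 UMIs in null-labelled against 17775 UMIs in control-labelled GMP-like cells, and 8322 UMIs in null-labelled against 2823 UMIs in control-labelled mature neutrophil-like cells. Its part in the ratios of CPM was not tested. The control-labelled monocyte-like class joined clusters at 159 CPM and 9.68 CPM, whereas the null-labelled class was 1 cluster, so its ratio depends on that mix. The ratio of monocyte-like cells, 3.66 on the log2 scale, was 2.81 with a limit of 5% mitochondrial UMIs, 2.90 with no such limit and 2.82 with doublets kept, and that of T-like cells, 3.25, was 2.25 with doublets kept. The ratio of erythroid-like cells, 3.31, was 3.99 without hemoglobin UMIs, which placed it behind GMP-like and B precursor-like cells (5.28 and 4.27 on that scale), and 4.54 with TMM factors (scaling factors estimated from the bulk of genes), which placed it behind GMP-like cells at 4.99.

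In GMP-like cells all 6 members were 2-fold or more higher, as were 18.9% of the genes with at least 30 UMIs in that class. In immature neutrophil-like cells it was again 6 of 6, against 8.49% of genes. In mature neutrophil-like cells 4 of the 5 members with enough UMIs passed 2-fold, against 21.3% of genes, and Oas3 did not. All 5 members with enough UMIs passed it in monocyte-like cells (12.1% of genes), in B precursor-like cells (6.80%) and in erythroid-like cells (4.89%). In mature B-like cells 4 of 4 did so (9.83% of genes), and in T-like cells 3 of 3 (9.40%). Members reached this minimum mostly through the library in which they were high, so these counts describe them and do not stand as support.

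**Figure D2:**
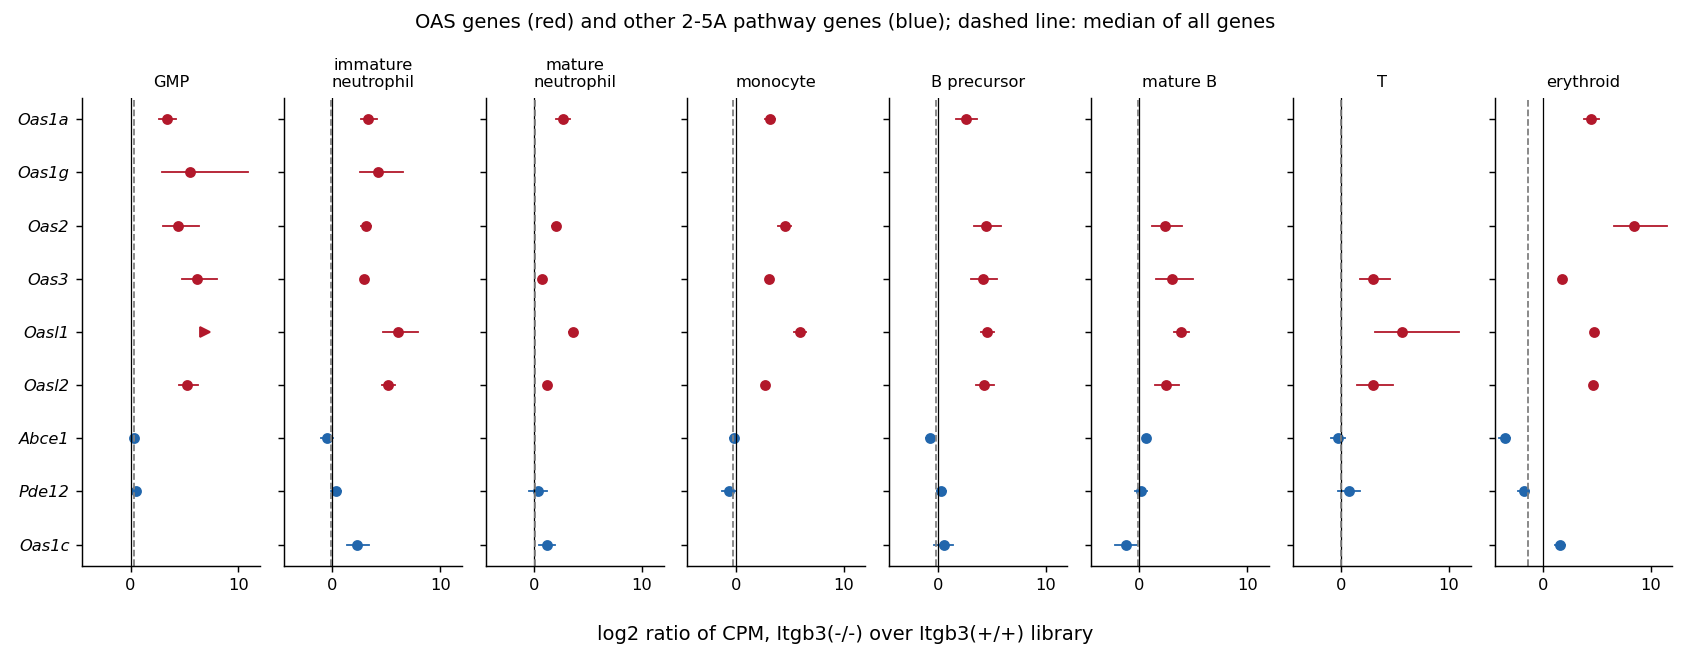
log2 ratio of CPM, Itgb3(-/-) over Itgb3(+/+) library, for the OAS genes (red) and the other 2-5A pathway genes (blue) in each class; points need at least 30 UMIs, bars are 95% counting intervals, the arrowhead is a lower bound at a floor of 3 UMIs, the solid line marks no difference and the dashed line the median of all genes. Every plotted OAS point lies right of both lines, whereas Abce1 and Pde12 lie left of both in erythroid cells.

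The makeup of the family also differed between classes and libraries. UMIs of 3′ ends count molecules without a length factor, so shares of the family's UMIs can be set beside each other. Oas3 supplied 24.3% of the OAS transcripts in the null-labelled library and 52.8% in the control-labelled library, and Oasl1 28.5% and 8.58%. In erythroid-like cells the contrast was wider, with Oas3 at 25.6% of null-labelled and 74.4% of control-labelled OAS transcripts. Null-labelled mature B-like cells drew 70.5% of theirs from Oasl1, against 51.3% of only 39 control-labelled UMIs, and B precursor-like cells 49.7% in the null-labelled against 39.4% in the control-labelled library. Oas1a made up 11.02% of null-labelled OAS transcripts in GMP-like cells, against 41.7% of 36 control-labelled UMIs.

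**Figure D3:**
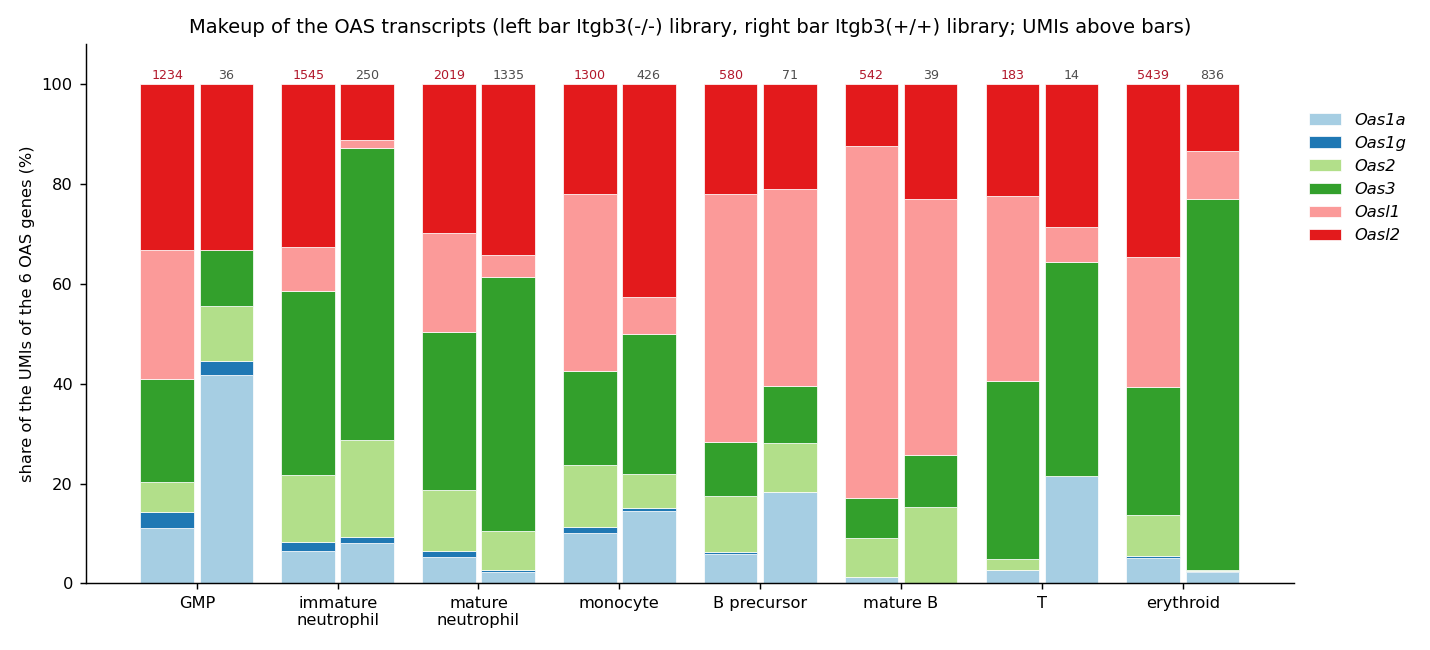
Share of the OAS transcripts (percent of the UMIs of the 6 genes) given by each gene in each class, left bar the Itgb3(-/-) library and right bar the Itgb3(+/+) library, with the number of UMIs above each bar. Green Oas3 fills 74.4% of the control-labelled erythroid bar against 25.6% of the null-labelled one, and Oasl1 fills 70.5% of the null-labelled mature B bar; bars on few UMIs, such as the 14 of control-labelled T cells, are imprecise.

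Erythroid cells, which make hemoglobin until it dominates their RNA, were split by the hemoglobin share of each cell's UMIs. The family stood at 509 CPM in null-labelled cells under 20% hemoglobin, 870 CPM at 20 to 60% and 438 CPM over 60%, against 40.3, 64.2 and 70.6 CPM in control-labelled cells. Counted over UMIs other than hemoglobin, the null-labelled levels were 568, 1518 and 2493 CPM and the control-labelled levels 43.5, 107 and 354 CPM, so both libraries had their highest value in the cells richest in hemoglobin. As transcripts per cell the order was different, with 8.85, 8.95 and 4.27 OAS UMIs in null-labelled cells and 0.681, 0.443 and 0.379 in control-labelled cells. In the class as a whole the median hemoglobin share was 70.7% in null-labelled and 59.1% in control-labelled cells, 63.0% of genes were 2-fold or more lower in the null-labelled library, and the median log2 ratio over all genes was -1.41, against 4.67 for the 5 members with enough UMIs.

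Within a class the clusters did not hold one OAS level. The mature neutrophil-like cells of the null-labelled library formed a cluster of 110 cells at 1043 CPM, led by Cxcl2, Retnlg and Mmp8, and a cluster of 246 cells at 560 CPM. The 4 control-labelled clusters ranged from 131 CPM to 475 CPM, the highest being the cluster with Il1b and Csf3r as leading genes, so in this class all null-labelled clusters lay above all control-labelled ones. Monocyte-like cells formed 1 null-labelled cluster at 633 CPM, whereas the control-labelled clusters differed from each other, at 159 CPM and 9.68 CPM. Erythroid-like clusters overlapped on the total with hemoglobin: the null-labelled ones ran from 89.2 CPM, in a cluster with a median of 93.1% hemoglobin, to 943 CPM, and the control-labelled ones from 39.5 CPM to 147 CPM. Counted over UMIs other than hemoglobin, that null-labelled cluster was at 1267 CPM. On this scale the null-labelled clusters ran from 547 to 3256 CPM and the control-labelled ones from 43.7 to 571 CPM, so the ranges overlapped between 547 and 571 CPM. The highest control-labelled erythroid cluster had Rsad2, an interferon-induced gene, among its 10 leading genes, and 1 null-labelled erythroid cluster had Isg15 and Rsad2 among its own.

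**Figure D4:**
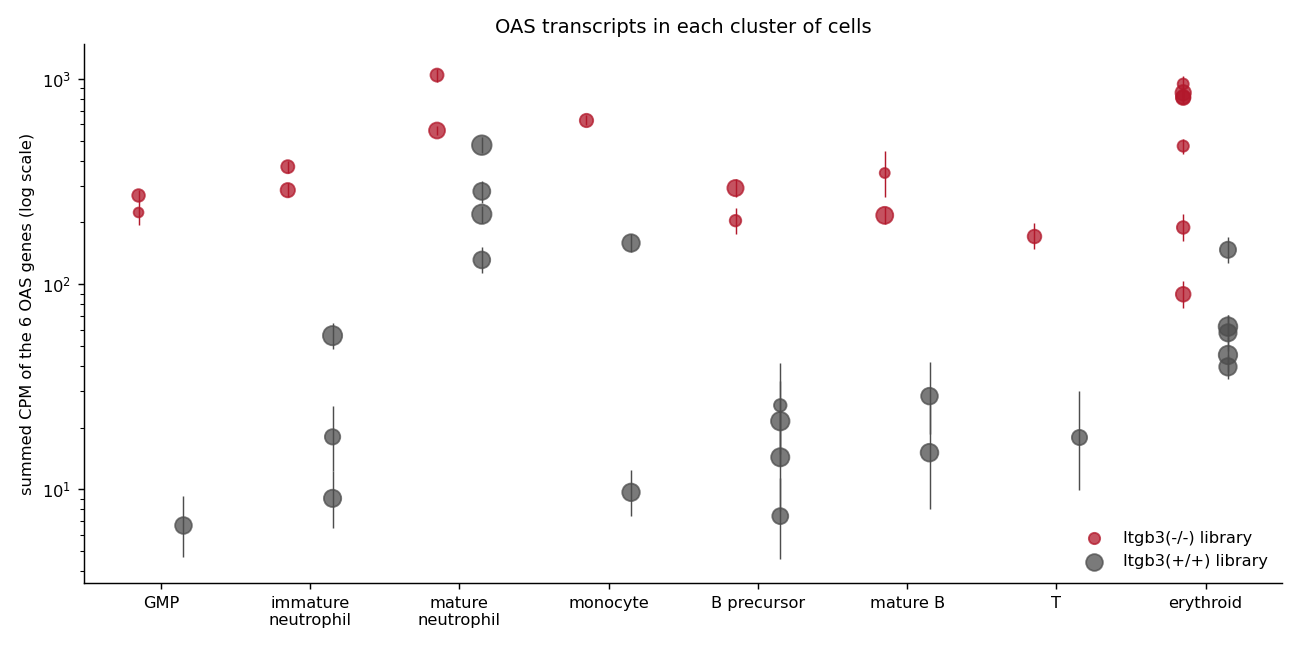
Summed CPM of the 6 OAS genes (logarithmic axis) in every cluster of the 8 compared classes, red for the Itgb3(-/-) and dark for the Itgb3(+/+) library. Point area follows the square root of the number of cells, and bars are 95% Poisson intervals. Mature neutrophil clusters come closest without overlap, from 560 to 1043 CPM against 131 to 475 CPM. The erythroid clusters overlap between 89.2 and 147 CPM on this total, which includes hemoglobin UMIs.

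Transcripts of the family were also found in a larger share of null-labelled cells of every class. With every cell thinned to 1000 UMIs, 33.3% of null-labelled cells (944 of 2834, 31.6 to 35.1) and 7.52% of control-labelled cells (632 of 8401, 6.97 to 8.11) had a transcript of any member; the unthinned shares were 81.8% and 23.5%, and thinning left out 69 and 194 shallower cells. The thinned share, of null-labelled against control-labelled cells, was 51.2% against 7.35% in monocyte-like, 50.9% against 21.8% in mature neutrophil-like, 38.6% against 6.10% in erythroid-like, 30.1% against 3.32% in immature neutrophil-like, 23.6% against 1.61% in B precursor-like, 19.9% against 1.03% in GMP-like, 19.2% against 1.84% in mature B-like and 18.3% against 1.49% in T-like cells. At 2000 UMIs per cell, 32.7% of null-labelled cells had transcripts of exactly 1 member, 12.6% of 2 and 4.32% of 3, against 9.96%, 1.61% and 0.193% of control-labelled cells. No class is known to lack these genes and serve as a background for RNA released from other cells. In null-labelled mature B-like cells Oas1a was at 2.92 CPM, against 26.1 CPM over all null-labelled cells, and Oas1g at 0 CPM, against 4.0 CPM over all. How much of the counts of any class came from RNA released from other cells was not tested.

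Beside the members, 8 genes were described for the 2-5A pathway, of which 7 were among the features counted and Oas1b was not analysed here. Over all cells 4 had enough UMIs, of which 2 were 2-fold or more higher, Oas1c and Oas1e, and none 2-fold or more lower. Among all genes with enough UMIs 8.49% were higher and 18.2% lower by that measure. Abce1, a ribosome recycling factor, was at 32.8 CPM in the null-labelled against 47.4 CPM in the control-labelled library, and Pde12, a phosphodiesterase that degrades 2-5A, at 16.6 CPM in the null-labelled against 16.9 CPM in the control-labelled library. Abce1 was 11.6-fold lower in erythroid-like cells, at 3.87 CPM in null-labelled against 45.0 CPM in control-labelled cells, and Pde12 3.47-fold lower, at 4.18 CPM in null-labelled against 14.5 CPM in control-labelled cells. These are log2 ratios of -3.54 and -1.80 in a class where the median of all genes was -1.41 and 63.0% of genes were 2-fold or more lower, so Pde12 lay close to that median. Oas1c, another copy of the Oas1 cluster, had 8.78 CPM in the null-labelled against 3.66 CPM in the control-labelled library, a ratio of 2.40 (2.01 to 2.87), and unlike the members it was lower in mature B-like cells, at 5.84 CPM in null-labelled against 13.5 CPM in control-labelled cells. Oas1e had 21 null-labelled and 11 control-labelled UMIs, Oas1d 1 null-labelled and 0 control-labelled UMIs, and Oas1f and Oas1h 0 in both libraries.

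Genes of related routes were counted in the same way. Among 8 genes that sense or act on double-stranded RNA, 6 were 2-fold or more higher over all cells and 1, the adaptor gene Mavs, was 2-fold or more lower, at 4.42 CPM in the null-labelled against 9.32 CPM in the control-labelled library. Their median log2 ratio was 2.34. Zbp1, a sensor of Z-form nucleic acids, had the largest ratio, 24.3-fold (22.5 to 26.3), and Dhx58, a RIG-I-like receptor, was 7.42-fold higher. Eif2ak2, the kinase PKR, was at 70.0 CPM in null-labelled against 31.7 CPM in control-labelled cells, and the RNA editing enzyme gene Adar at 42.9 CPM in null-labelled against 21.6 CPM in control-labelled cells, just under 2-fold. Of 14 interferon receptor and signalling genes, 7 were 2-fold or more higher and none 2-fold or more lower, with a median log2 ratio of 1.01. For both lists the shares over all genes with enough UMIs were 8.49% higher and 18.2% lower. Irf7, the transcription factor whose mRNA Oasl1 restrains, was at 362 CPM in null-labelled against 22.9 CPM in control-labelled cells, 15.8-fold higher, and Usp18, a brake on the receptor, was 20.9-fold higher. Tyk2 and Irf3 had the lowest ratios of that list, 0.581 and 0.592, and the kinase gene Jak1 was at 103.9 CPM in null-labelled against 133.6 CPM in control-labelled cells. Of 21 interferon genes, 18 had no UMI in either library. Ifnb1 had 15 UMIs in the null-labelled library, all in monocyte-like cells, and 0 in the control-labelled library, where the floor of 3 UMIs is 0.0508 CPM. This gene is named here after its values were seen. Ifng had 74 null-labelled and 43 control-labelled UMIs, of which 52 null-labelled and 15 control-labelled UMIs were in T-like cells.

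Across the 16 combinations of class and library, the genes whose log2(CPM + 10) followed the summed members most closely, among 12510 genes, were Rtp4 (r = 0.940), Irf7 (r = 0.936), Ifit1 (r = 0.910), Usp18 (r = 0.906) and Dhx58 (r = 0.898), all interferon-induced genes by background knowledge. These points come from 2 libraries that differ in the level of the family itself. Over the 8 classes of the null-labelled library alone, other genes came first: St3gal5 (r = 0.964), Klf11 (r = 0.956), Trafd1 (r = 0.951), Fam214b (r = 0.950) and Fam126a (r = 0.942). Of the members themselves, Oas2 (r = 0.935) and Oasl2 (r = 0.913) followed the family sum most closely across null-labelled classes and Oasl1 least (r = 0.468). These correlations are descriptions over few points.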

How the data were processed

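The authors deposited whole-number UMI counts per gene and cell barcode for both libraries, without normalization. Per the submitters' processing notes Cell Ranger 3.0, Seurat and mm10 were used, while the files' own headers record software version 3.1.0. Strand handling and the filters applied before deposit are not stated there. The matrices held 4281 null-labelled and 12764 control-labelled barcodes with 44694854 and 79192158 UMIs. Barcodes under 200 genes or over 10% mitochondrial UMIs were removed (1307 and 3479), and then the highest Scrublet scores, at 0.8% per 1000 cells, as doublets (71 and 690 cells). Each library was clustered with scanpy 1.11.5 (2000 variable genes without interferon-response and OAS genes, 30 components, 15 neighbours, Leiden resolution 1.5) into 26 null-labelled and 32 control-labelled clusters.

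Clusters were named from marker lists by scores whose limits were set after the data were seen, a non-erythroid cluster over 20% median hemoglobin staying unnamed; 87 null-labelled (3.00%) and 624 control-labelled cells (7.26%) had no name. As each library had its own clusters, a class is made of different clusters in each. UMIs were summed per class and scaled to a total of 1000000 (CPM), with exact Poisson intervals for levels and exact binomial intervals of the split between libraries for ratios. Genes with at least 30 UMIs over both libraries were counted by 2-fold change, and a floor of 3 UMIs per class and library replaced a count of 0. The ratio, its interval and the 2-fold call were run on Poisson counts simulated for the mature neutrophil-like class. That is the model these intervals assume, without variation between cells or animals, so the run checks the arithmetic only. Cells were thinned to 1000 UMIs, with Clopper-Pearson intervals. PCR and capture are not covered by these intervals.

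Gene identifiers were found in GENCODE vM21 for 30934 of 31053 features (99.6%), which gave the coordinates. Members, markers, lists and rules were chosen with earlier results of these data known. Named genes were the 6 members, the 2-5A list, the 2 most abundant and the 2 highest and 2 lowest ratios of each other list, and the 5 genes most correlated with the summed members; 2 genes of the lists are not reported here. edgeR 4.0.16 supplied TMM factors as an alternative.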

Additional observations from a re-analysis of the deposited data

How the results depend on the processing

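With 1 library per genotype no replicate could be left out. No paired analysis was possible because each genotype is 1 library and no test was run. In all 100 recomputed counts of members at 2-fold, or at 4-fold as the alternative, the count stayed within 1.5 times the main one. Among the recomputed log2 ratios of the summed members none changed direction, 51 stayed within counting error and 22 moved beyond it. TMM factors gave 3.11 over all cells (2.91 by CPM), 1.20 in mature neutrophil-like (1.40) and 4.54 in erythroid-like cells (3.31), and shifted the median log2 ratio of all genes by 1.24 in erythroid-like cells, -0.30 in GMP-like and 0.19 over all cells; relative to that median, which the factors move by the same amount, the family was at 4.71, 5.0 and 3.15. Without hemoglobin UMIs the ratio was 3.0 over all cells and 3.99 in erythroid-like cells. The mean over cells gave 2.30 over all cells, 3.29 in immature neutrophil-like (3.64) and 3.03 in monocyte-like cells (3.66). A limit of 5% mitochondrial UMIs gave 2.84 over all cells, 3.97 in immature neutrophil-like, 1.77 in mature neutrophil-like, 2.81 in monocyte-like and 3.17 in erythroid-like cells, and no limit gave 2.90 in monocyte-like cells. Keeping doublets gave 2.82 in monocyte-like, 2.25 in T-like (3.25) and 3.14 in erythroid-like cells. Resolution 0.8 gave 3.49 in monocyte-like and 3.02 in erythroid-like cells, and joint clustering 3.94 in immature neutrophil-like, 1.79 in mature neutrophil-like and 3.13 in erythroid-like cells. The cause of these shifts was not tested. Of the ratios of single members over all cells 8 moved beyond counting error and 46 did not; Oasl2 moved most, to 2.09 with the mean over cells (3.13). Of the recomputed levels of the family 54 moved and 92 did not. Control-labelled levels moved by over 1.5 times with the mean over cells, to 101.7 CPM over all cells (57.1) and 94.9 CPM in monocyte-like cells (50.1), which then stood above erythroid-like cells at 70.5 CPM. They also did so with doublets kept, to 84.8 CPM in monocyte-like and 33.8 CPM in T-like cells (18.1), with the 5% and no mitochondrial limit, to 89.1 and 83.7 CPM in monocyte-like cells, and with 10% of each class's UMIs subtracted as free RNA, to 4.39 CPM in GMP-like cells (6.69). Erythroid-like levels were 873 CPM in null-labelled and 37.4 CPM in control-labelled cells with TMM factors, and 1559 CPM and 98.1 CPM without hemoglobin. Shares of cells with a UMI depended on depth: 81.8% of null-labelled and 23.5% of control-labelled cells unthinned, and 50.4% and 11.8% at 2000 UMIs. Under the 5% limit GMP-like, B precursor-like, mature B-like and T-like cells fell under 100 cells in a library, as did GMP-like and monocyte-like cells under joint clustering, GMP-like cells at resolution 0.8 and T-like cells without a mitochondrial limit; these gave no value.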

Other observations

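Classes with too few cells to compare also held transcripts of the family. By CPM of all UMIs the highest level of any cluster was in 43 macrophage-like null-labelled cells, at 1134 CPM (894 to 1420), with 76 UMIs; their median depth was 918 UMIs, and no control-labelled cluster was named macrophage-like. In 2 unnamed control-labelled clusters the macrophage markers scored highest, with C1qa and C1qb among the leading genes, but the median hemoglobin share was 73.4% and 44.6%; the family was at 104.9 CPM in the first, of 198 cells, and 93.5 CPM in the other, of 126 cells. Oasl1 was at 776 CPM in the null-labelled macrophage-like cells and Oas1a at 104.5 CPM, both above the null-labelled monocyte-like levels of 223.5 CPM and 63.3 CPM. Plasmacytoid dendritic-like cells, a type known for making type I interferon, had 555 CPM (467 to 655) in 23 null-labelled cells and 28.2 CPM (12.9 to 53.6) in 61 control-labelled cells. Basophil- or mast-like cells had 267 CPM (230.0 to 307.5) in 53 null-labelled cells and 11.8 CPM (1.43 to 42.7) in 44 control-labelled cells. NK-like cells had the lowest null-labelled level of the named types, 94.0 CPM (67.4 to 127.5) in 52 cells, against 33.2 CPM (16.6 to 59.5) in 77 control-labelled cells. Plasma-like cells, named in the null-labelled library alone, had 121 CPM (88.0 to 161.5), and megakaryocyte-like cells, named in the control-labelled library alone, had 29.97 CPM (21.9 to 40.1); clustering both libraries jointly named 79 null-labelled and 106 control-labelled megakaryocyte-like cells.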
